A study of Homo sapiens with 10 samples.

Results

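Small nucleolar RNAs (snoRNAs), small Cajal body RNAs and spliceosomal small nuclear RNAs (snRNAs) were followed on microarrays of RNA from sucrose gradients. The members were all probes whose platform gene symbol begins with SNORA, SNORD, SCARNA or RNU and a digit, with host genes left out, which gave 319 of the 47323 probes of the array, for 314 of the 20046 genes with a symbol of their own. By symbol, 178 probes stood for box C/D snoRNAs, 102 for box H/ACA snoRNAs, 24 for Cajal body RNAs and 13 for spliceosomal RNAs. A further 2 probes, RNU105B and RNU105C, were assigned to none of these classes. The cells were Meg01, a human megakaryoblastic leukaemia line, grown in 10% fetal calf serum and infected with lentivirus at 10 infectious particles a cell, by the stated multiplicity. The vector encoded the short hairpin sh95, directed against ATXN2 and called knockdown below, or the control hairpin shc002. Cells positive for GFP were sorted after 48 hours, and their lysate was separated on a 7% to 46% sucrose gradient. Fractions 1 to 8 were pooled as subpolysomal RNA and fractions 9 to 17 as polysomal RNA. All groups therefore carried a hairpin, and no cells without virus were measured.

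Subpolysomal RNA was hybridised to 4 arrays, with P1 and P3 for each hairpin (n = 2), and polysomal RNA to 6, with P2, P4 and P5 for each hairpin (n = 3). The labels give 3 independent experiments but not which P number belongs to which of them, and no number occurs in both pools. ATXN2, the target of the hairpin, was lower with knockdown in 5 of 5 pairs of the same number, with 9.18 to 10.77 on the control and 8.64 to 8.99 on the knockdown arrays in log2 units. The label of a megakaryocyte line was set against marker genes. Of 12 megakaryocyte markers on the array 5 were above background on all 10 arrays, the highest being NFE2 at 12.06, and 6 of 11 erythroid markers were, the highest being the globin HBG2 at 14.34. Of the monocyte and granulocyte markers 1 of 10 was (LYZ at 7.98), and of the lymphoid markers 1 of 9 (CD79B at 8.29).

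Most snoRNAs are cut out of introns of host genes, many of which encode ribosomal proteins or translation factors, and some of which are noncoding. Box C/D snoRNAs guide 2′-O-methylation and box H/ACA snoRNAs guide pseudouridylation of ribosomal RNA in the nucleolus, Cajal body RNAs guide the same changes on spliceosomal RNAs, and U1, U2, U4, U5 and U6 build the spliceosome with their proteins. These RNAs work in the nucleus and are not templates for translation, and their mature forms lack a poly(A) tail. The amplification kit named in the labels starts from oligo(dT), so a probe may also read precursors, host transcripts or internally primed products. Which RNA species gave each signal was not tested.

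Sequence was at hand only where an annotated microRNA hairpin lies within a member. Among members above background on at least 2 arrays, SNORA84, on chromosome 9, and SCARNA16, on chromosome 17, had a stretch that reaches the 3′ end, and its last 30 bases are shown for the box that defines the H/ACA class. The capitals mark the ACA box, which stands 3 bases before the end in both. The bases come from RefSeq (GRCh38.p14), at chr9:92292461-92292490 on the minus strand and chr17:77089464-77089493 on the plus strand, written 5′ to 3′.
SNORA84: agcugccauagcccggucgcugguACAuga
SCARNA16: ugaugaucauguaugauacugcaaACAgga

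The signal of the class was low. The threshold for a signal above background was the upper 0.05 tail of each array's background distribution, at log2 7.62 to 7.64. By this measure 155 of 319 members (48.6%) were above background on at least 2 arrays, against 56% of all probes, and 16 members (5.02%) were so on all 10 arrays, against 24.2% of all probes. Another 102 members were above background on no array and 62 on 1. Tests were limited to the probes that passed on 2 or more arrays, called kept, and 24 of the 155 kept members passed only through subpolysomal arrays. By class, 77 box C/D, 58 box H/ACA, 11 Cajal body and 8 spliceosomal probes were above background on at least 2 arrays, as was RNU105C. The 16 read on every array were SNORD6, SNORD14C, SNORD31, SNORD33, SNORD35B, SNORD36A and SNORD36C of the box C/D class, SNORA10, SNORA11D, SNORA18, SNORA25, SNORA50C and SNORA61 of the H/ACA class, SCARNA10, and the spliceosomal RNU1-1 and RNU6-1. The highest single value of any member was 10.14. Deposited intensities still held a background of about 187 units (187.1 to 187.9 at the mode of each array), so log2 differences of such dim probes understate the ratio of the RNAs.

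The number of members above background was higher in subpolysomal than in polysomal RNA. On the subpolysomal arrays 95 (control P1), 137 (control P3), 111 (knockdown P1) and 137 (knockdown P3) members passed. On the polysomal control arrays 72 (P2), 86 (P4) and 53 (P5) passed, and with knockdown 54, 75 and 64. The pools did not overlap in this count. The share of all probes above background was 39.2% to 42.6% on the subpolysomal and 39.7% to 41.1% on the polysomal arrays. By class only the box C/D counts were apart, at 48 to 74 on subpolysomal and 21 to 37 on polysomal arrays. In the other classes the pools overlapped. Box H/ACA had 36 on subpolysomal control P1 and 41 on polysomal control P4, and spliceosomal probes had 2 and 4 there. Cajal body probes had 6 on subpolysomal knockdown P1 and 7 on polysomal control P2. All values below are quantile-normalized log2 intensities, so each difference is relative to the other probes. A pool difference compares gradient fractions, and between hairpins fewer cells of a kind cannot be told apart from less RNA per cell.

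Polysomal minus subpolysomal differences were negative for most members, with class medians near 0. Over all 319 members the median was -0.03 in control and -0.03 in knockdown cells, beside 0.00 and 0.00 over all probes, and 71.5% and 69.9% of members were negative, beside 47.7% and 47.4% of all probes. Box C/D probes had medians of -0.03 and -0.02, box H/ACA probes -0.05 and -0.04, Cajal body probes -0.01 and -0.02, and spliceosomal probes -0.07 and -0.19. Over the 16 members above background on every array the medians were -0.45 and -0.30, while all 11434 probes above background on every array had 0.05 and 0.07. The tails were one-sided. Averaged over both hairpins the members ran from -1.63 to 0.09, and 8.78% of them lay below -0.5, as did 3.66% of all probes. The highest kept member was SNORD71, at 0.09.

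**Figure D1:**
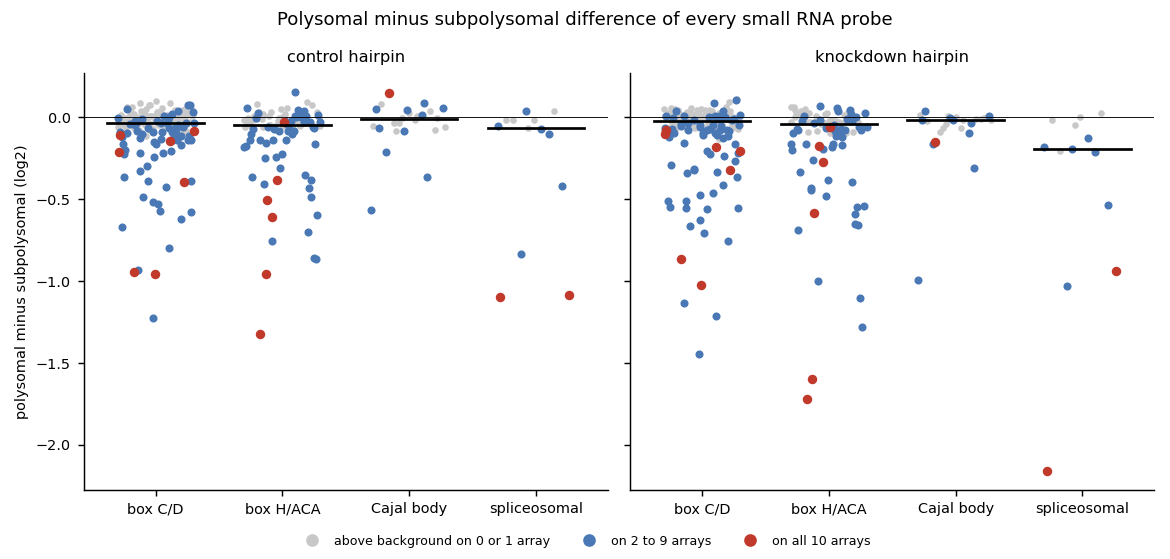
Polysomal minus subpolysomal difference (vertical axis, log2) of every box C/D, box H/ACA, Cajal body and spliceosomal probe in control (left) and knockdown (right) cells. Each point is a probe, coloured by the number of arrays on which it was above background, and the bar is the class median. Medians lie between -0.07 and -0.01 in control and between -0.19 and -0.02 in knockdown cells, and long tails run downward only.

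Complete separation of the pools was also one-sided. All 4 subpolysomal arrays lay above all 6 polysomal arrays for 47 members (14.7%), beside 2% of all probes, and the opposite held for 0 members, beside 1.51% of all probes. The 47 comprised 24 box C/D, 20 box H/ACA, 1 Cajal body and 2 spliceosomal probes. Among probes above background on all arrays, where the filter cannot act through 1 pool, 8 of 16 members were separated in this way, beside 4.66% of the 11434 probes, and 0 in the opposite way, beside 4.47%.

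Tests were made with limma over the 26496 probes kept, with Benjamini-Hochberg adjustment over all of them and a threshold of 0.05. In control cells 1 member, SNORD84, was called lower in polysomal RNA and 0 higher, where 0.128% of all probes were called and 0.117% were called lower. In knockdown cells SNORD84 and RNU6-1 were called lower and 0 higher, where 0.159% of all probes were called and 0.136% were called lower. At an unadjusted limma p under 0.05, 38 and 48 of the 155 members passed (24.5% and 31%, beside 5.63% and 7.68% of all probes), all of them lower. These counts, and the unadjusted ones below, include the 24 members kept only through subpolysomal arrays, for which the filter favours this direction. With no filter 47 and 57 of all 319 members had an unadjusted limma p under 0.05. Averaged over both hairpins, which uses all 10 arrays, 15 of the 155 were called lower and 0 higher, where 1.16% of all probes were called and 0.887% were called lower. These were 7 box C/D probes (SNORD35B, SNORD36A, SNORD43, SNORD52, SNORD84, SNORD96A, SNORD104), 7 box H/ACA probes (SNORA18, SNORA41, SNORA61, SNORA62, SNORA63, SNORA72, SNORA84) and RNU6-1. Of the 24 members kept only through subpolysomal arrays, where the filter favours this direction, 3 were among the 15 (SNORD84, SNORD96A and SNORA84), and 12 came from the other 131. With no filter 12 of all 319 members were called, beside 0.45% of the 47323 probes. Of the 16 members read on every array 5 were among the 15 (SNORD35B, SNORD36A, SNORA18, SNORA61 and RNU6-1), beside 1.57% of all such probes. Arrays of the same P number deviated together. With that number as a random block 3 of the 15 remained called, RNU6-1 (limma adjusted p = 0.0276), SNORD84 (0.0278) and SNORD104 (0.0463). The block also cut the calls over all probes from 308 to 49. At an unadjusted limma p under 0.05 it left 31% of the members, beside 7.17% of all probes. With each pair averaged first 0 members and 1 probe of the table were called by limma, and 35 members had an unadjusted p under 0.05, as did 1473 of the 26496 probes.

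**Figure D2:**
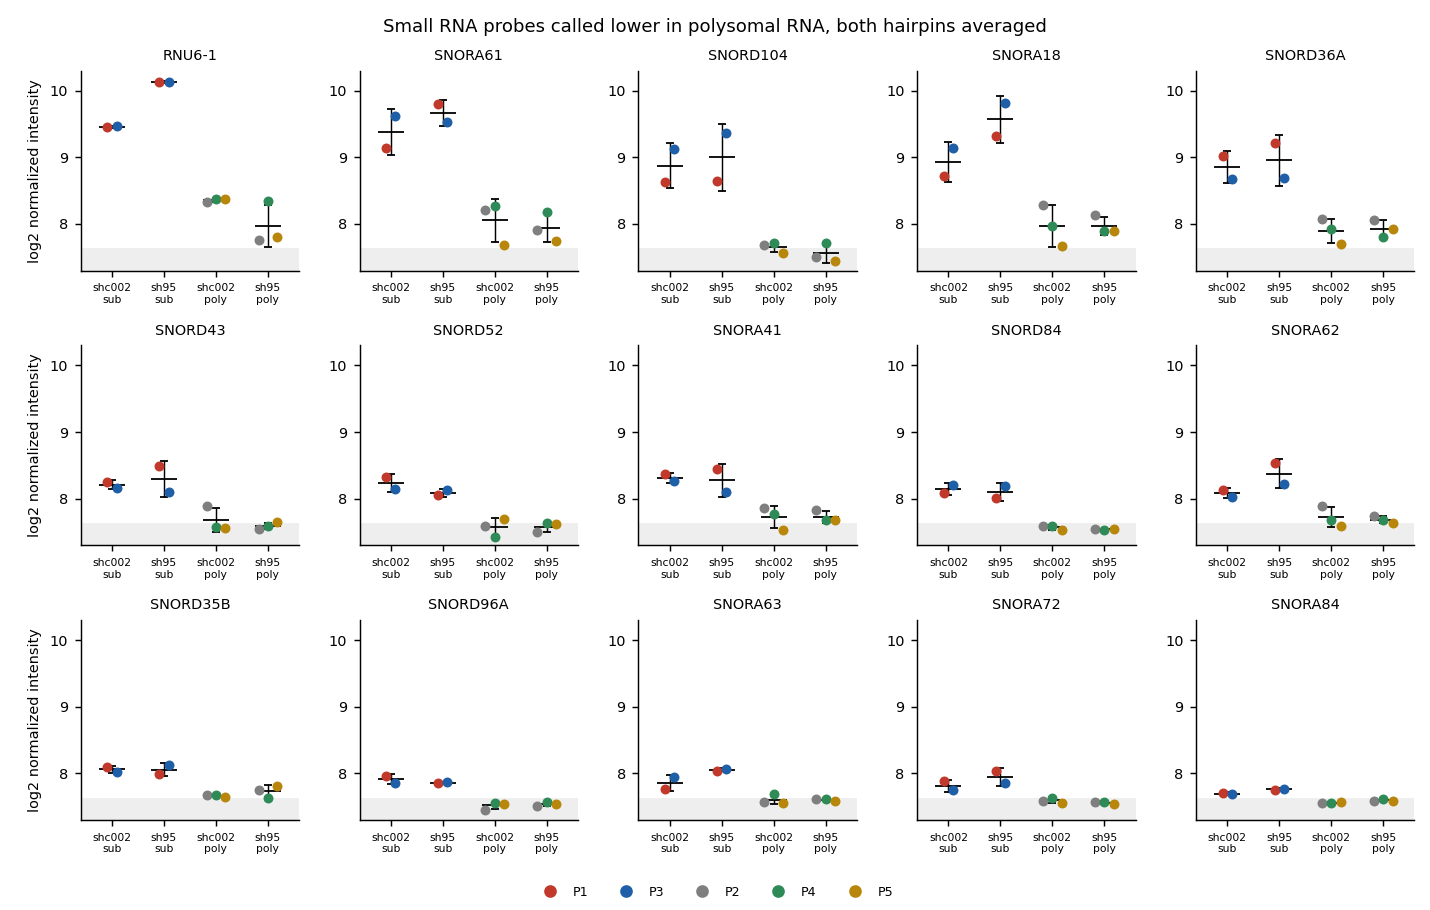
Normalized log2 intensity (vertical axis) of the 15 probes called lower in polysomal RNA, by hairpin (shc002 control, sh95 knockdown) and pool. Points are arrays coloured by P number, bars are means ± SD (n = 2 for each subpolysomal and n = 3 for each polysomal group), and the grey band lies below the background threshold of 7.62. In all 15 panels the 4 subpolysomal arrays lie above the 6 polysomal ones, and polysomal values of the dimmer probes fall within the band.

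RNU6-1, the gene of the U6 snRNA at the catalytic centre of the spliceosome, had the largest difference of all members in knockdown cells and on average, while in control cells SNORA61 (-1.32) and SNORD104 (-1.22) differed more. Subpolysomal RNA read 9.45 (P1) and 9.47 (P3) with the control hairpin and 10.14 and 10.12 with knockdown. Polysomal RNA read 8.33 (P2), 8.38 (P4) and 8.38 (P5) with the control hairpin and 7.77, 8.34 and 7.81 with knockdown. Every subpolysomal value was above every polysomal one, replicates lay close together in subpolysomal RNA, and in polysomal knockdown RNA P4 stood above P2 and P5. The difference was -1.10 (SE 0.16, limma adjusted p = 0.109) in control cells, -2.16 (SE 0.16, adjusted p = 0.0126) in knockdown cells and -1.63 (SE 0.11, adjusted p = 0.00339) averaged. U6 is encoded by several near-identical genes, so the probe cannot be tied to this copy.

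RNU1-1, one of several near-identical genes of the U1 snRNA that pairs with the 5′ splice site, was also lower in polysomal RNA but unevenly so. Subpolysomal P1 read 8.49 and 8.26 with the control and knockdown hairpin, and P3 read 9.77 and 9.64. Polysomal values were 8.19, 8.14 and 7.81 with the control and 8.14, 8.09 and 7.82 with the knockdown hairpin. The averaged difference of -1.01 (SE 0.34, limma adjusted p = 0.304) was not called. It was -1.68 without both P1 arrays and -0.34 without both P3 arrays. These fits were added after the values had been seen and leave 1 array in each subpolysomal group. RNU1-3, a second U1 gene, differed in the same way, at 7.60 and 7.75 on subpolysomal P1 against 9.59 and 9.55 on P3. Array values of RNU1-3 and of the U3, RNU4ATAC, SCARNA9, SNORD13 and SNORD87 probes below were chosen for print after they had been seen. The other spliceosomal probes were dim. RNU2-1, RNU5A-1 and RNU5D-1 were above background on no array and RNU4-1 on 1. RNU4ATAC, the U4 counterpart of the minor spliceosome, was highest on subpolysomal P3, at 8.39 and 8.51, and both RNU11 probes, for the U11 snRNA of that spliceosome, were above background on the subpolysomal P3 arrays alone.

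**Figure D3:**
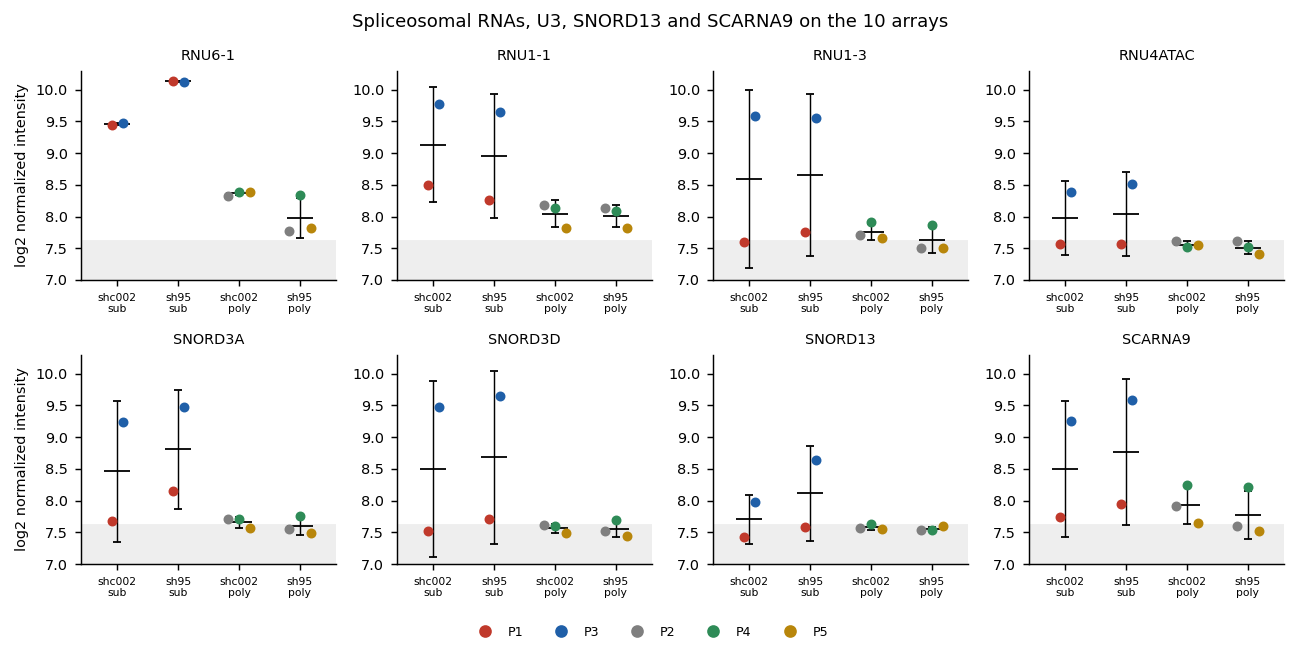
Normalized log2 intensity (vertical axis) of RNU6-1, RNU1-1, RNU1-3, RNU4ATAC, the U3 genes SNORD3A and SNORD3D, SNORD13 and SCARNA9, by hairpin and pool. Points are arrays coloured by P number, bars are means ± SD (n = 2 or 3), and the grey band lies below the background threshold of 7.62. RNU6-1 is alike on subpolysomal P1 and P3, whereas the other 7 are high on P3 and lower on P1 with both hairpins.

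Among box H/ACA snoRNAs the largest differences belonged to SNORA61 and SNORA18. SNORA61, placed within the noncoding host gene SNHG12, read 9.13 (P1) and 9.62 (P3) in subpolysomal control, 9.81 and 9.53 in subpolysomal knockdown, 8.20, 8.27 and 7.69 in polysomal control and 7.91, 8.18 and 7.75 in polysomal knockdown RNA. The pools did not overlap, and the averaged difference was -1.52 (SE 0.16, limma adjusted p = 0.0123, 0.0642 with the P block). SNORA18, within TAF1D, which encodes a subunit of the RNA polymerase I factor SL1, read 8.72 and 9.14, then 9.32 and 9.81 in subpolysomal control and knockdown RNA. Its polysomal values were 8.28, 7.96 and 7.67 with the control and 8.13, 7.90 and 7.89 with the knockdown hairpin. The difference of SNORA18 was -1.28 (SE 0.16, limma adjusted p = 0.0194, 0.0581 with the P block).

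The other 5 called H/ACA probes differed by less. SNORA41 lies within EEF1B2, a translation elongation factor gene, SNORA62 within the ribosomal protein gene RPSA and SNORA63 within the helicase gene EIF4A2. Their averaged differences were -0.57 (SE 0.09), -0.53 (SE 0.08) and -0.35 (SE 0.05). SNORA72, within RPL30, differed by -0.30 (SE 0.05). SNORA84, within the isoleucyl-tRNA synthetase gene IARS1 and shown above by sequence, had the smallest called difference. It read 7.71, 7.68, 7.75 and 7.77 on the subpolysomal arrays and 7.55 to 7.62 on the polysomal ones, on none of which it was above background. Its subpolysomal level was at least 1.05-fold higher in control and at least 1.10-fold higher in knockdown cells, where the floor is, on each array, the lowest normalized value among probes above background, or the probe's own value if higher. With averaging its limma adjusted p was 0.04998, and 1 of 19 alternative settings kept the call. SCARNA16, the other sequence printed, was not called, at -0.21 in control and -0.16 in knockdown cells.

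SNORA25, the brightest member by its mean over the arrays, was among those that did not separate the pools. It read 8.98 and 9.41 in subpolysomal control, 9.00 and 9.24 in subpolysomal knockdown, 8.76, 9.05 and 7.96 in polysomal control and 9.59, 8.65 and 8.59 in polysomal knockdown RNA. The highest of its 10 values was polysomal, and the averaged difference was -0.39 (SE 0.29, limma adjusted p = 0.697). SNORA25 and SNORA18 both lie within TAF1D. The genes whose probes followed SNORA25 most closely over the 10 arrays were MATN2 (Pearson r 0.91), TOX2 (0.892), ENTREP1 (0.872), SUPT3H (0.863) and LINC02400 (0.861), and among members SNORD95 (0.825) and SNORD94 (0.765). By mean level MATN2 (7.67), ENTREP1 (7.59), LINC02400 (7.68), SNORD95 (7.6) and SNORD94 (7.67) lay near the background threshold of 7.62 to 7.64. TOX2 (7.88) and SUPT3H (8.29) lay further above it. The arrays share pools and P numbers, and these correlations are descriptions. SNORA10, SNORA11D and SNORA50C, also read on all arrays, differed by -0.54, -0.04 and -0.33 on average and were not called.

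SNORA33, within RPS12, was among the 5 members with the largest averaged difference and was not called. It read 9.25 (P1) and 8.24 (P3) in subpolysomal control and 9.98 and 8.21 in subpolysomal knockdown RNA. Its polysomal values were 8.37, 7.69 and 7.59 with the control and 8.01, 7.58 and 7.86 with the knockdown hairpin. The pools overlapped, and the averaged difference was -1.07 (SE 0.39, limma adjusted p = 0.347).

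SNORD104, within the noncoding host gene SNHG25, had the largest difference of the box C/D class. Subpolysomal RNA read 8.64 (P1) and 9.12 (P3) with the control and 8.65 and 9.36 with the knockdown hairpin. Polysomal RNA read 7.68, 7.71 and 7.57 with the control and 7.51, 7.72 and 7.45 with the knockdown hairpin, at the edge of background. The pools did not overlap, and the averaged difference was -1.33 (SE 0.16, limma adjusted p = 0.0152, 0.0463 with the P block). SNORD36A, within RPL7A, read 9.02 and 8.68 in subpolysomal control, 9.22 and 8.69 in subpolysomal knockdown, 8.07, 7.92 and 7.71 in polysomal control and 8.06, 7.80 and 7.93 in polysomal knockdown RNA. Its averaged difference was -0.99 (SE 0.14, limma adjusted p = 0.0254, 0.0722 with the P block). SNORD36C of the same gene differed by -0.90 (SE 0.25) but was not called, since its subpolysomal values were 9.25 and 9.26 on P1 and 8.22 and 8.29 on P3.

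SNORD84, within DDX39B, which encodes an RNA helicase of mRNA splicing and export, was the member called with either hairpin. It read 8.08 and 8.20 in subpolysomal control and 8.01 and 8.19 in subpolysomal knockdown RNA. Polysomal values were 7.60, 7.59 and 7.53, then 7.54, 7.54 and 7.55, all below the background threshold. Its subpolysomal level was therefore at least 1.43-fold higher in control cells (means 8.14 and 7.57, limma adjusted p = 0.0471) and at least 1.39-fold higher in knockdown cells (means 8.10 and 7.54, adjusted p = 0.0425). The averaged difference was -0.56 (SE 0.05, adjusted p = 0.00519). The call in control cells was lost with the P block (adjusted p = 0.0542) and on leaving out any 1 array, and the call of SNORD84 in knockdown cells was lost on leaving out any 1 array.

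The remaining called box C/D probes were SNORD43 within RPL3 (-0.62, SE 0.10), SNORD52 within SNHG32 (-0.59, SE 0.07), SNORD35B (-0.36, SE 0.05) and SNORD96A within RACK1, which encodes a ribosome-bound scaffold protein (-0.36, SE 0.04). SNORD96A was above background on no polysomal array, so its subpolysomal level was at least 1.21-fold higher in control and at least 1.18-fold higher in knockdown cells. The other box C/D probes read on all arrays were SNORD6 at -0.16, SNORD31 at -0.16, SNORD14C at -0.14 and SNORD33 at -0.09, with overlapping pools and limma adjusted p of 0.362 to 0.552.

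Of the 11 Cajal body probes kept, 0 were called by limma and 1 had an unadjusted p under 0.05. SCARNA10, a guide RNA of mixed box C/D and H/ACA type, was read on all arrays, and its pools overlapped. Its subpolysomal values were 7.82 and 8.59 with the control and 7.99 and 8.57 with the knockdown hairpin, and its polysomal values 8.23, 8.33 and 8.51, then 8.06, 8.28 and 8.05. The difference was 0.15 (SE 0.25) in control and -0.15 (SE 0.25) in knockdown cells. SCARNA9 differed by -0.57 and -0.99, with P3 at 9.26 and 9.58 and P1 at 7.74 and 7.95. SCARNA13, within the noncoding SNHG10, differed by -0.36 and -0.31.

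The 2 subpolysomal samples, P1 and P3, differed in the same members with either hairpin. This likeness between hairpins was not particular to the members. Deviations of subpolysomal arrays of the same number from their group means correlated at 0.917 over the kept members and at 0.917 over all kept probes. Of the 155 kept members 21 were higher on P3 by over 0.3 with both hairpins (13.5%, beside 11.5% of all kept probes) and 8 were higher on P1 (5.16%, beside 14.1%). The largest P3 excess was that of RNU1-3 and of SNORD3D, a gene of the U3 snoRNA that takes part in cutting the precursor of 18S ribosomal RNA. P1 minus P3 was -1.99 and -1.80 for RNU1-3 and -1.96 and -1.93 for SNORD3D in control and knockdown cells. SNORD3A, a further U3 gene, differed by -1.57 and -1.32, SCARNA9 by -1.52 and -1.63, RNU1-1 by -1.28 and -1.39 and SNORD13 by -0.54 and -1.07. The P1 excess was largest for SNORA33 (1.01 and 1.77), SNORD87 (1.05 and 1.30) and SNORD36C (1.03 and 0.96). RNU6-1 differed by -0.02 and 0.01.

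By the place of the gene the counts were as follows. Of the 11 kept members that no annotated gene contains, 6 were higher on P3 and 0 on P1, namely RNU1-1, RNU1-3, SNORD3A, SNORD3C, SNORD3D and SNORD13. RNU1-1 and RNU1-3 both stand for U1 and the SNORD3 genes for U3, so the 6 are not 6 separate RNAs. RNU6-1, also contained by no gene, was higher on neither. Of 41 kept members within ribosomal protein genes 5 were higher on P3 and 4 on P1, of 41 within noncoding genes 2 and 2, and of 62 within other coding genes 8 and 2. Over all kept probes 11.5% were higher on P3 and 14.1% on P1 by the same cut. RN7SK, a structural nuclear RNA outside the members, read 8.08 and 8.65 on subpolysomal P1 against 9.87 and 10.56 on P3. Whether the samples differed in cells, lysis, gradient or extraction was not tested. Without both P1 arrays 25 members and 397 probes in all were called on average, and 6 of the 25 were among the 15. Without both P3 arrays it was 14 members, of which 5 were among the 15, and 259 probes, beside 308 with all arrays. These fits were added after the values had been seen, and each subpolysomal group is then 1 array that is assumed to vary like the polysomal arrays, which alone give the spread. RNU6-1, SNORD84 and SNORD104 were among the members called in both.

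**Figure D4:**
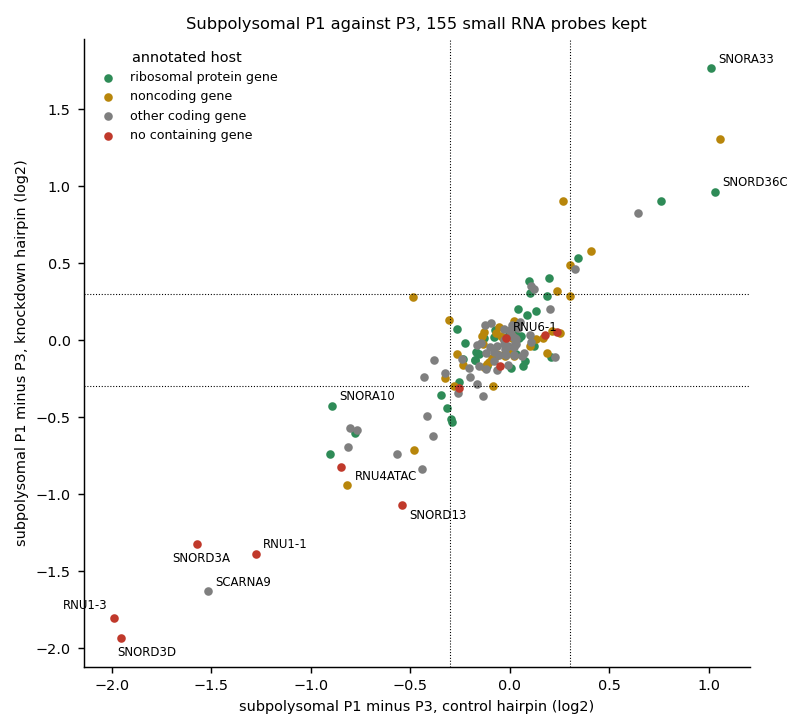
Subpolysomal P1 minus P3 (log2) of the 155 kept members with the control hairpin (horizontal axis) and the knockdown hairpin (vertical axis), coloured by the kind of annotated host gene. Dotted lines mark 0.3 either side of 0. The far lower left holds RNU1-3, SNORD3D, SCARNA9, SNORD3A and RNU1-1, the far upper right SNORA33, SNORD87 and SNORD36C, and RNU6-1 lies at the centre.

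Knockdown of ATXN2 was followed by no called difference in any member. In polysomal RNA 0 of 155 members and 0% of all probes were called by limma, in subpolysomal RNA 0 and 0%, and for the change of the polysomal minus subpolysomal difference 0 and 0%. ATXN2 itself, lower in 5 of 5 pairs, was thus not called either. The absence of calls therefore does not show that the members were unchanged. At an unadjusted p under 0.05 there were 1, 5 and 4 members (0.645%, 3.23% and 2.58%, beside 1.52%, 0.861% and 1.13% of all probes). With the P number as a block, which pairs the arrays, there were again 0 calls by limma and 1, 14 and 10 members at an unadjusted p under 0.05 (0.645%, 9.03% and 6.45%, beside 6.21%, 2.2% and 3.65% of all probes). The median over all members was 0.00 in polysomal and 0.01 in subpolysomal RNA, as it was 0.00 in both over all probes.

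RNU6-1 had the smallest p of the members in both pools. It was higher with knockdown in both subpolysomal pairs, by 0.69 (P1) and 0.65 (P3), and lower in the 3 polysomal pairs, at -0.56 (P2), -0.04 (P4) and -0.57 (P5). The subpolysomal difference was 0.67 (SE 0.17, limma adjusted p = 1), and the polysomal one -0.39 (SE 0.14, adjusted p = 1). The change between pools was -1.06 (SE 0.22, adjusted p = 1, 0.935 with the P block). The next in size in subpolysomal RNA was SNORA18, higher by 0.64, and in the blocked fit it had the smallest unadjusted limma p of the members (0.00211, adjusted p = 1). Of the 14 members with an unadjusted p under 0.05 in the blocked subpolysomal fit 12 were higher with knockdown, among them SNORD13 at 0.41 and SNORD3A at 0.35, and RNU1-1 and SNORD31 lower, at -0.18 and -0.16.

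Of the 314 member genes, 57 lie by the RefSeq annotation within ribosomal protein genes, 100 within noncoding genes, 141 within other coding genes and 16 within none, with strand left aside. Members of a shared host gene differed from each other. Within TAF1D, SNORA18 and SNORA8 had averaged differences of -1.28 and -0.88 and SNORA25 -0.39, while SNORD5 and SNORA40 were above background on no array. Within RPL7A, SNORD36A and SNORD36C were bright in subpolysomal RNA and SNORD24 and SNORD36B were above background on no array. Of 8 members within GAS5, SNORD80 was above background on 9 arrays and differed by -0.57, and the other 7 lay between -0.07 and 0.06 with either hairpin. The 24 SNORD113 and SNORD114 members of the imprinted MEG8 locus had averaged differences between -0.10 and 0.08, with 5 of them kept.

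Host transcripts and members were both lower in polysomal RNA in most cases, without a close relation in size. For 115 kept members a probe of the host, for 74 hosts, was also above background on at least 2 arrays, and the averaged differences correlated with Pearson r 0.237 and Spearman rho 0.355 across members, which share hosts, arrays and depth of signal and are not independent. Both were lower in polysomal RNA for 80, the member lower and the host higher for 22, the reverse for 6 and both higher for 7. Members were mostly lower beside hosts of either sign, so the count of shared signs does not by itself show a relation. Of 17 members below -0.5, 10 had a host below -0.5 and 2 had a host above 0. SNORD33 differed by -0.09 beside -1.37 for its host RPL13A (limma adjusted p = 0.0423), and SNORA61 by -1.52 beside -0.41 for SNHG12 (adjusted p = 0.0546). The SNHG12 probe was dim, with a mean of 7.87 and a signal above background on 8 arrays. Differences of dim probes are understated, so sizes cannot be compared directly between bright and dim probes. SNORD43 differed by -0.62 beside 0.18 for RPL3.

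**Figure D5:**
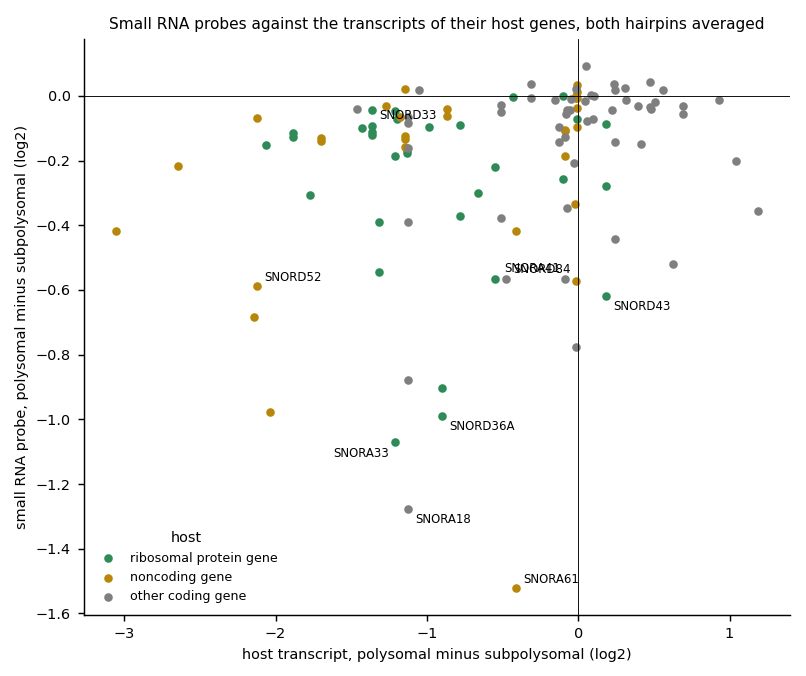
Polysomal minus subpolysomal difference averaged over both hairpins (log2) of 115 kept members (vertical axis) against a probe of the host transcript (horizontal axis), coloured by the kind of host. Most points lie in the lower left, SNORA61 and SNORA18 lie lowest, and SNORD33 has a difference near 0 beside a host at -1.37.

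Many host mRNAs belong to the class with a terminal oligopyrimidine (TOP) run at the start, which places their translation under growth control. A run was scored as a C within 5 bases of the annotated start followed by at least 4 letters C or T, on the strand of the gene. It was found at 15 of 18 ribosomal protein hosts with a promoter entry (83.3%), 12 of 28 noncoding hosts (42.9%) and 28 of 86 other coding hosts (32.6%), beside 21.1% of 35116 promoters. The starts of 5 hosts of called members and of RPL13A are shown from RefSeq (GRCh38.p14), with 10 bases before the annotated start and 20 from it on, 5′ to 3′, and with the run in capitals. They lie at chr9:133348208-133348237 (RPL7A, plus strand), chr3:39406710-39406739 (RPSA, plus), chr1:28581854-28581883 (SNHG12, minus), chr11:93741476-93741505 (TAF1D, minus), chr6:31541984-31542013 (DDX39B, minus, without a run) and chr19:49487598-49487627 (RPL13A, plus).
RPL7A: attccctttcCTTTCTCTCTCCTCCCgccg
RPSA: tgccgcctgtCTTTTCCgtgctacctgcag
SNHG12: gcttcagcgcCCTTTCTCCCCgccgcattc
TAF1D: aatagccaacCCTTTTCTTCCgcacggttg
RPL13A: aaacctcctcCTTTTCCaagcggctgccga
DDX39B: aagtgaaggcagatttccctccttcgtcgc

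The mRNAs of proteins that bind, assemble or process these RNAs had medians above 0 in 7 of 8 lists and below 0 in the Sm and LSm list. The 4 box C/D core proteins had an averaged median of 0.48 with 3 of 4 positive and 0 called, the largest by t being the methyltransferase gene FBL at 0.43 (SE 0.31) and NOP58 at 0.70 (SE 0.62). The 4 H/ACA core proteins had 0.61, with 0 called, 3 positive, and DKC1, the pseudouridine synthase, at 1.05 (SE 0.20, limma adjusted p = 0.072). Of 11 assembly factors 10 were positive (median 0.19), with NOLC1 at 0.69 and ZNHIT6 at 0.89. Of 23 U snRNP proteins 18 were positive (median 0.44), with SNRPB2 at 0.98 (SE 0.19, adjusted p = 0.076) and SNRPA1 at 0.71. Cajal body and SMN complex genes had 0.14 over 11, with COIL, the marker protein of Cajal bodies, at -0.86, and GEMIN5 at 0.11. The Sm and LSm ring genes had -0.09 over 13, with SNRPB at 1.16 and LSM4 at -1.39. Minor spliceosome genes had 0.11 over 8, with SNRNP25 at -2.09 and SNRNP48 at 0.11, and the genes of snRNA transcription and 3′ processing 0.15 over 21, with INTS12 at -0.92 and INTS7 at 0.27. None of these 8 lists had a called gene. The averaged median was 0.00 over all probes and 0.06 over probes above background on all 10 arrays.

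Other noncoding RNAs lay on the side of the members. Of 8 further structural RNAs kept 6 were negative (median -0.12, 0 called), with RN7SK at -1.62 (SE 0.46) and the vault RNA VTRNA1-1 at -0.11 (SE 0.03). All 17 snoRNA host transcripts kept from the list of such transcripts were negative (median -1.15), and 2 were called lower, EPB41L4A-AS1 at -2.64 (SE 0.27, limma adjusted p = 0.011) and SNHG5 at -2.45 (SE 0.39, adjusted p = 0.0423). In subpolysomal RNA SNHG5 read 11.49 and 11.91 on P1 and 12.94 and 12.82 on P3, while EPB41L4A-AS1 lay between 12.22 and 12.54.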

How the data were processed

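Gene expression was measured on Illumina beadchips, 10 arrays of cRNA. The values used were the intensities deposited by the authors on a linear scale, and how they were normalized is not stated in the labels or headers. The submitters' processing notes name R 2.15. A second table of unnormalized signals has 10 value columns that match no sample label and were not used, so the planned neqc correction could not be run. The deposited intensity values were log2-transformed and quantile-normalized. Each array's background was taken from its log2 values mirrored at the mode, with an upper tail of 0.05, and 26496 probes above it on at least 2 arrays were kept. Group means were fitted with limma 3.58.1 (R 4.3.3) over 10 arrays, with Benjamini-Hochberg adjusted p under 0.05, two-sided, and the steps were tested on simulated data. The precision is limited by the number of arrays.

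P numbers pair control and knockdown arrays within a pool, since deviations of same-numbered arrays from their group means correlated at 0.917 in subpolysomal and 0.763 (P2), 0.769 (P4) and 0.467 (P5) in polysomal RNA. For the pool comparisons the number was a random block with a consensus correlation of 0.549. Nothing in the labels gives the experiment of each array, so p-values may cover technical spread only. All 319 members and their symbols matched the RefSeq gene table (GRCh38.p14). A host is the shortest named coding or noncoding gene whose span contains the member, on either strand, since the table gives no strand, which departs from the plan. Pathway genes are represented by their kept probe with the highest mean. Array values are printed for members above background on all 10 arrays, those called, and the 5 with the largest averaged difference. For lists without a called gene the 2 genes with the largest absolute t are named. Members and lists were chosen with earlier results of these data known. A probe that fits several near-identical genes cannot be assigned to 1 of them, and no probe positions were used.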

Additional observations from a re-analysis of the deposited data

Results flagged for a closer look

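RNU6-1 and SNORA72 were the members with array values for which knockdown and control differed in opposite directions in the 2 pools on every pair. For RNU6-1 the change of the polysomal minus subpolysomal difference with knockdown was -1.06 (SE 0.22). It missed the limma threshold over all probes (adjusted p = 1), and without the polysomal knockdown array P4 it was -1.25 and passed (adjusted p = 0.0213). For SNORA72 the change was -0.16 (SE 0.10, limma adjusted p = 1), with knockdown minus control at 0.16 and 0.10 in the subpolysomal pairs and at -0.01, -0.06 and -0.02 in the polysomal pairs. On 5 of the 6 polysomal arrays SNORA72 was not above background.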

How the results depend on the processing

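In control cells the 1 member called became 0 with median centring, with no further normalization, with no filter on dim probes, with probes above background on all 10 arrays only, with a background tail of 0.01, with only the arrays compared in the fit, with a trended and robust prior, with the replicate block on the P number, and without both P3 subpolysomal arrays. In knockdown cells the 2 called became 1 with median centring, with no further normalization and with the 0.01 tail, and 0 with only the arrays compared, with the trended and robust prior and without both P3 arrays. Averaged over both hairpins the 15 became 4 with probes above background on all arrays only. There 16 members could be tested, 5 of them among the 15, and 331 probes were called, beside 308 in the main fit. The 15 became 3 with the replicate block, beside 49 probes, and 0 with each pair averaged first, beside 1 probe. Without both P1 arrays, an alternative chosen after seeing the data, the counts were 5, 10 and 25. Leaving out 1 array gave 0 to 1 in control cells, 0 to 1 in knockdown cells and 5 to 13 for the average. It was 5 without the control subpolysomal array P3 or the knockdown polysomal array P2, 6 without the knockdown subpolysomal P1 or the control polysomal P4 or P5, and 7 without the control subpolysomal P1 or the knockdown polysomal P4 or P5. Averaged calls over all probes fell as well, from 308 to 122 and 146 without the control polysomal P4 and P5. They fell to 124, 148 and 169 without the knockdown polysomal P2, P4 and P5. Without the knockdown polysomal array P4 the 1 called in control cells was RNU6-1 (limma adjusted p = 0.00213). The change of the pool difference with knockdown gave 0 to 1 called members on leaving out 1 array. The replicate block changed no call in the knockdown comparisons.

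With probes above background on all arrays only, the class medians in control and knockdown cells were -0.449 and -0.298 over all members, -0.213 and -0.205 for box C/D, -0.554 and -0.43 for box H/ACA, 0.152 and -0.148 for Cajal body and -1.091 and -1.547 for spliceosomal probes. Leaving out 1 array moved them between -0.048 and -0.02 and between -0.044 and -0.022 over all members, between -0.044 and -0.022 and between -0.031 and -0.021 for box C/D, between -0.049 and -0.026 and between -0.061 and -0.018 for box H/ACA, between -0.039 and 0.005 and between -0.036 and -0.012 for Cajal body, and between -0.12 and 0.012 and between -0.274 and -0.063 for spliceosomal probes. Among the members printed with array values, for which alone these settings were run, the direction turned for 5, none of them called. On leaving out 1 array SNORD33 in knockdown cells ran from -0.16 to 0.01, SNORD6 in control cells from -0.33 to 0.05 and SNORA25 in knockdown cells from -0.5 to 0. SNORA11D ran from -0.13 to 0.07 in control cells, from -0.16 to 0.05 in knockdown cells and from -0.09 to 0.01 on average, and was 0.06 without both P1 arrays. SCARNA10 ran from -0.23 to 0.54 in control cells, from -0.44 to 0.14 in knockdown cells and from -0.19 to 0.19 on average, and was -0.33 without both P1 arrays. The cause was not tested for any of these. The planned background-correction alternatives were not run, since the unnormalized columns match no label, and low signal over background limits the differences of most members.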
